A study of Mus musculus with 69 samples.

Results

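The primed-state and early mesendoderm genes described here are 10 genes that pluripotent cells turn on as they leave the naive state or enter the primitive streak. They are Fgf5, Otx2, Pou3f1, Lef1, Zic2, Sox3, T, Eomes, Mixl1 and Evx1, listed by name with no threshold on a measured value, but with earlier results of these data known. All 10 were found among the 16263 genes of the mRNA-seq count table, and all 10 passed the filter on low counts. Their surroundings were read from ATAC-seq, which marks open chromatin by transposase insertion: 55 of 89596 open regions lay within 20 kb of these genes.

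The cells were J1 mouse embryonic stem cells (ESCs), a line of strain background 129S4/SvJae taken from the inner cell mass of the blastocyst. Wild-type (WT) ESCs were compared with the lines H3.3K27R #18 (Mut18) and H3.3K27R #43 (Mut43), in which CRISPR-Cas9 editing of H3f3a and H3f3b replaced lysine 27 of the histone variant H3.3 with arginine, so that this residue of H3.3 can no longer be acetylated or methylated. Each mutant line is 1 edited clone, and each line gave 2 biological replicates per assay. An effect of the mutation therefore cannot be told apart from other differences between these lines. All cells were grown on feeder cells and then passaged without feeders before harvest, with no other treatment and no differentiation step.

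Naive ESCs resemble the epiblast before implantation. Primed cells resemble the epiblast after implantation, which switches on Fgf5, Otx2 and Pou3f1 as it becomes ready to form the germ layers. WNT and Nodal signals then induce T and Eomes in the primitive streak, where mesoderm and endoderm begin. In ESC cultures a few cells are known to express such genes while most stay naive. In bulk RNA, fewer cells expressing a gene and less RNA per cell cannot be told apart.

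The count totals of the mRNA-seq libraries lay between 14992756 and 15143998, so depth was nearly equal. Markers of ESCs were abundant in every line: Pou5f1 was at 12443 normalised counts in WT and 10287 in the mutants, and Esrrb at 3919 and 5214. WT replicate 1 stood apart in some feeder markers. Col6a1, a collagen gene of fibroblasts, was at 427 normalised counts in WT replicate 1 and 57.8 in WT replicate 2, against 21.3 to 34.0 in the mutant libraries. Over all genes, 24.5% of the 14061 tested were lower in the mutants at an adjusted p under 0.05 and 23.5% were higher, which is 48.0% in either direction. Without WT replicate 1 the number of genes that passed was 5206 in place of 6749.

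In the mutants, 7 of the 10 genes were lower than in WT and 0 were higher at an adjusted p under 0.05, with 0 higher at an unadjusted p under 0.05 and by DESeq2 too. The test was edgeR's quasi-likelihood F-test, with p-values adjusted over all tested genes by the method of Benjamini and Hochberg. These were Fgf5, Pou3f1, Lef1, Zic2 and Sox3 of the 6 primed genes, and T and Eomes of the 4 mesendoderm genes. T was 6.20-fold and Fgf5 5.97-fold lower, Pou3f1 2.96-fold and Sox3 2.93-fold. These 4 were also the genes that fell more than 2-fold, a size reached by 5.65% of all tested genes in this direction. The 10 genes had a median log2 fold change of -0.70, beside -0.0041 for all tested genes, whose middle range ran from -0.25 to 0.21. Every mutant library was below both WT libraries in 8 of the 10 genes, an ordering found in 30.3% of all tested genes. The same 7 genes were lower in Mut18 and in Mut43, each taken alone against WT, where 21.0% and 23.9% of all genes were lower. In each clone, Fgf5, Pou3f1, Sox3 and T were again more than 2-fold lower, as were 4.74% of all genes in Mut18 and 6.81% in Mut43. Both comparisons used the same WT libraries. The 7 also passed in each fit that left out 1 library, WT replicate 1 included, when the lines were pooled.

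**Figure D1:**
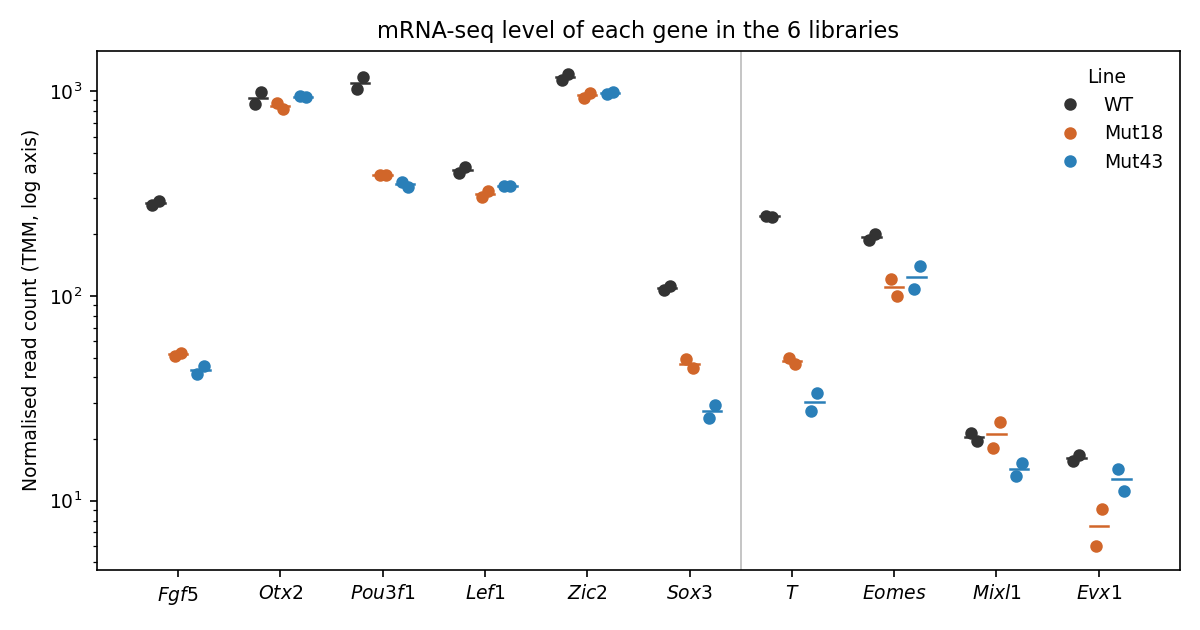
Normalised counts (vertical log axis) of the 10 genes (horizontal axis, primed genes left of the grey line and mesendoderm genes right of it) in the 6 mRNA-seq libraries, with 1 point per library and a bar at the mean of each of WT, Mut18 and Mut43. All mutant points of Fgf5, Pou3f1, Sox3 and T lie far below the WT points, while those of Otx2 and Mixl1 mix with them.

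Fgf5, a fibroblast growth factor used as the standard marker of the primed epiblast, was at 279 and 292 normalised counts in WT. Mut18 libraries had 51.0 and 52.6, and Mut43 libraries 41.7 and 45.6. Every mutant library was thus below every WT library, with a gap far wider than the spread within a line. The mean was 285 ± 9.13 (SD, n = 2) in WT and 47.7 ± 5.00 (SD, n = 4) in the mutants, which is 5.97-fold lower in the mutants. The log2 fold change was -2.58 with a standard error of 0.12 and a 95% interval of -2.82 to -2.33 (edgeR, adjusted p = 7.96e-13). It ranked 46th from the lowest of the 14061 tested genes.

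Fgf5 lies on chromosome 5 of GRCm38 at chr5:98254184-98277030, on the plus strand. The 250 bases before its start are printed, which an ATAC-seq peak overlapped in 5 of 6 libraries. Also printed are 300 bases of an open region in its intron, where a peak lay in every library. Lef1 had promoter windows with a peak too, in up to 6 libraries, but its sequences are not printed. Capitals mark the matches to the motifs searched, on either strand. In the promoter these were the T-box motif GGTGTGA, read here on the minus strand, which 3.33% of 32851 mouse promoters of this length hold, and the GC box GGGCGG, also on the minus strand, which 32.7% hold. The promoter is chr5:98253934-98254183 and the open region chr5:98255868-98256167, both given on the plus strand.
Fgf5 promoter: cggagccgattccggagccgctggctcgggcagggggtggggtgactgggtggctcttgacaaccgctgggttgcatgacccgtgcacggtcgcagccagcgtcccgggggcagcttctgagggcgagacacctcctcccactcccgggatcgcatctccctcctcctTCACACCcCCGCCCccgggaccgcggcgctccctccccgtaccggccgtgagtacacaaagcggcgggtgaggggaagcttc
Fgf5 open region: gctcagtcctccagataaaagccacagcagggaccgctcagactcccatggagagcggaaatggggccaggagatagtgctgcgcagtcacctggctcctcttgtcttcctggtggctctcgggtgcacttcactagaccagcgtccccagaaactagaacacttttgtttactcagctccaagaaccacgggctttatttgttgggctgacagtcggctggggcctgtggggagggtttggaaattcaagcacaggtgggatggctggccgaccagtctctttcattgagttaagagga
The promoter was 70.8% G and C, where the median mouse promoter in this set has 52.4%. The open region held no match to the 7 motifs searched.

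Pou3f1, a POU-domain transcription factor of the primed epiblast and of neural precursors, was more than 2-fold lower as well, with a pooled change close to that of Sox3. WT libraries had 1019 and 1168.5 normalised counts, Mut18 libraries 389.3 and 389.2, and Mut43 libraries 361 and 339.8. The groups did not overlap, and the mutant libraries sat close together. The mean fell from 1094 ± 106 (SD, n = 2) to 369.8 ± 24.0 (SD, n = 4), a log2 fold change of -1.56 with a standard error of 0.07 (95% interval -1.71 to -1.42, edgeR, adjusted p = 5.05e-13). The gene lies on chromosome 4, at chr4:124656807-124660655 on the plus strand.

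Sox3, a SOXB1 transcription factor of the epiblast and neural plate encoded on the X chromosome (chrX:60891366-60893430, minus strand), was at 106 and 112 normalised counts in WT. Mut18 libraries had 49.0 and 44.5, and Mut43 libraries 25.4 and 29.4. The 3 lines therefore formed 3 steps with no overlap, WT above Mut18 above Mut43. The log2 fold change of the mutants was -1.55 with a standard error of 0.20 (95% interval -1.96 to -1.14, edgeR, adjusted p = 1.62e-06). The median over the 508 tested genes of chromosome X was -0.14.

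Lef1, a transcription factor that carries WNT signals to DNA together with beta-catenin, and Zic2, a zinc-finger factor of the primed state, moved far less. Lef1 was at 398 and 425 normalised counts in WT, against 305 and 324.5 in Mut18, and 344 and 343 in Mut43. All 4 mutant libraries were below WT, but only by 1.25-fold (log2 fold change -0.32, standard error 0.08, 95% interval -0.48 to -0.16, edgeR, adjusted p = 0.00148). In Mut43 alone the Lef1 call was not firm: the log2 fold change was -0.26 with an adjusted p of 0.0135 in edgeR and 0.119 in DESeq2. Without WT replicate 2, Mut43 replicate 1 or Mut43 replicate 2, the edgeR value was 0.106, 0.0639 and 0.0671. Zic2 was at 1136 and 1208 in WT, against 929.6 and 984 in Mut18, and 963 and 991 in Mut43. It was 1.21-fold lower in the mutants, again with no overlap (log2 fold change -0.28, standard error 0.05, 95% interval -0.38 to -0.18, edgeR, adjusted p = 8.99e-05). Such an ordering was found in 30.3% of all tested genes. Lef1 lies at chr3:131110471-131224356 and Zic2 at chr14:122475435-122479852, both on the plus strand.

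Otx2, a homeobox factor that drives the exit from the naive state, was the primed gene that did not pass. Its normalised counts were 868 and 986 in WT, beside 876 and 814 in Mut18, and 944 and 935 in Mut43. The mutant libraries lay within or just under the WT range. The log2 fold change was -0.06 (95% interval -0.19 to 0.08, edgeR, adjusted p = 0.495), an interval that leaves out a 2-fold change in either direction. The gene lies on the minus strand at chr14:48657677-48673819, where the annotation has the antisense gene Otx2os1 overlapping it on the plus strand. Whether the counting used strand is not given in the sources used here, so reads of Otx2 and Otx2os1 cannot be told apart.

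T (Brachyury), the founding T-box factor and the classical marker of the primitive streak, was at 247 and 243 normalised counts in WT. Mut18 libraries had 50.0 and 46.5, and Mut43 libraries 27.5 and 33.5. As with Sox3, the 3 lines did not overlap and Mut43 was lowest. The mean was 245 ± 2.74 (SD, n = 2) in WT and 39.4 ± 10.7 (SD, n = 4) in the mutants, 6.20-fold lower. The log2 fold change was -2.63 with a standard error of 0.15 (95% interval -2.95 to -2.31, edgeR, adjusted p = 2.93e-11), the 43rd from the bottom of all tested genes. T was the lowest of the 10 genes in the pooled comparison and in Mut43, but Fgf5 was lower in Mut18 (-2.46 against -2.34) and, without Mut43 replicate 1, in the pooled comparison (-2.51 against -2.49).

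T lies at chr17:8434423-8442496 on the plus strand. No ATAC-seq peak lay within 1000 bp of its start in any library, and its 1 open region with a peak in all 6 libraries lay 4266 bp upstream. Both stretches are printed to show the start without a peak and the open upstream site of a gene that fell as far as Fgf5, a choice made after the values were seen. The promoter is chr17:8434173-8434422 and the open region chr17:8430008-8430307, on the plus strand. Capitals in the promoter mark the TCF/LEF core CTTTGA, read on the minus strand, then a GC box on the minus strand whose last bases overlap a CCAAT box on the plus strand, then another GC box on the minus strand.
T promoter: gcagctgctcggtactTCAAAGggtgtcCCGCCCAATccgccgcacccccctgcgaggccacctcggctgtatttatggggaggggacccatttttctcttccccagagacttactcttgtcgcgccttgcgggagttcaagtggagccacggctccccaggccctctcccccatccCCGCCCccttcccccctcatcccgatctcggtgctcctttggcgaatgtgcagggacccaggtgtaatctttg
T open region: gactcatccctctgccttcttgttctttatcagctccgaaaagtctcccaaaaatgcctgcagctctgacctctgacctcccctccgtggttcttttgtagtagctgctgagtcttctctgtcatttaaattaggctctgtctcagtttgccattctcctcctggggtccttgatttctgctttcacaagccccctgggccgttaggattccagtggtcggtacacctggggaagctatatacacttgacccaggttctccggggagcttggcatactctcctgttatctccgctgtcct
The TCF/LEF core was found in 13.8% of all promoters of this length and the CCAAT box in 33.8%. The open region upstream held none of the 7 motifs, which says only that these letters are absent from this window.

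Eomes, a T-box factor of the streak and of definitive endoderm that also acts in trophoblast, fell less than T. WT libraries had 188 and 199.8 normalised counts, against 121 and 100.1 in Mut18, and 108 and 140.0 in Mut43. All mutant libraries were below WT, with more scatter than T. The log2 fold change was -0.73 with a standard error of 0.12 (95% interval -0.98 to -0.47, edgeR, adjusted p = 4.66e-05), or 1.65-fold lower. Eomes lies at chr9:118478212-118486132 on the plus strand.

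Mixl1 and Evx1, homeobox genes of the streak, were close to the floor of the data. Mixl1 was at 21.5 and 19.6 normalised counts in WT, beside 18.0 and 24.3 in Mut18, and 13.2 and 15.2 in Mut43. The Mut18 libraries lay on both sides of WT, and the log2 fold change of the mutants was -0.21 (95% interval -0.84 to 0.42, edgeR, adjusted p = 0.584). Evx1 was at 15.6 and 16.7 in WT, against 6.0 and 9.1 in Mut18, and 14.2 and 11.2 in Mut43. All 4 mutant libraries of Evx1 were below WT, as in 30.3% of all tested genes, but the difference did not pass (log2 fold change -0.67, 95% interval -1.42 to 0.09, edgeR, adjusted p = 0.138). At counts this low both intervals still hold a fall of the size seen for Eomes, so such a change was not excluded in these genes. The interval of Evx1 also holds a 2-fold fall, and that of Mixl1 does not. The antisense gene 5730457N03Rik overlaps Evx1 and was at 6.85 normalised counts in WT and 1.52 in the mutants. As for Otx2, reads of this pair cannot be told apart.

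**Figure D2:**
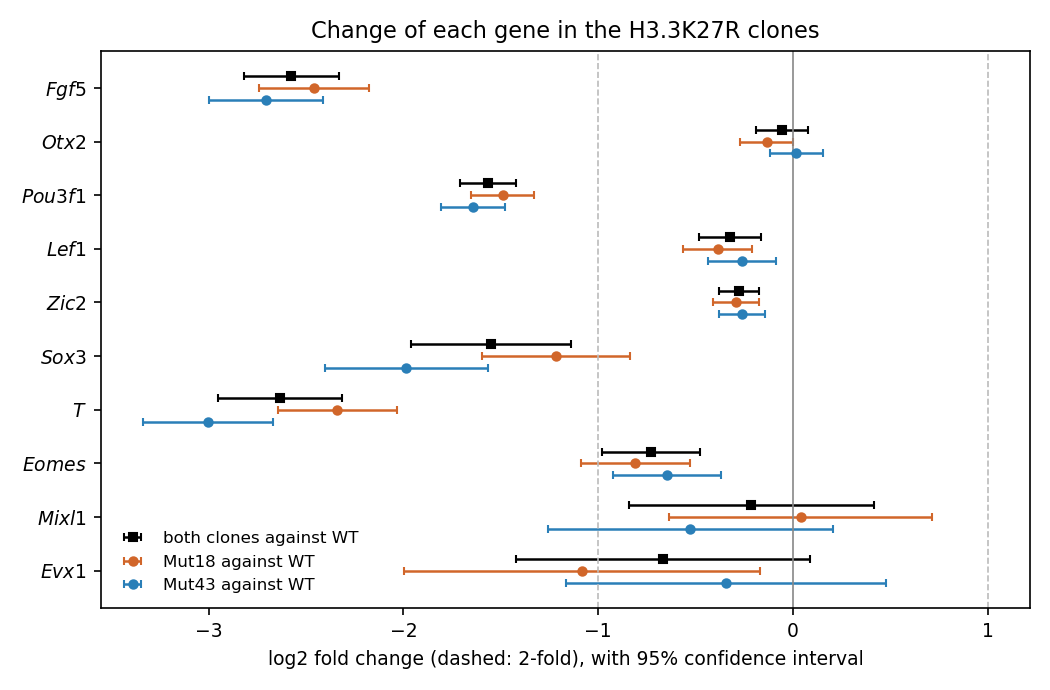
Log2 fold change against WT of the 10 genes (rows) for the pooled mutants, Mut18 and Mut43, with bars for 95% intervals from edgeR and dashed lines at a 2-fold change. The values run from -3.00 for T in Mut43 to 0.04 for Mixl1 in Mut18, and the intervals of Otx2 and Mixl1 include 0 in every comparison.

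Set against each other, the clones did not differ past the adjusted test in any of the 10 genes (edgeR, 0 of 10), where 0.327% of all tested genes did. DESeq2 called none of the 4 for which it gave an adjusted p. At an unadjusted p under 0.05 there were 3 of the 10 genes, Otx2, Sox3 and T, and 1198 of all tested genes. Sox3 was lower in Mut43 than in Mut18 by a log2 fold change of -0.77 (95% interval -1.24 to -0.29, edgeR, adjusted p = 0.218), and T by -0.66 (-1.09 to -0.23, adjusted p = 0.272). These intervals do not show that the clones were alike in Sox3 and T. Fgf5 and Pou3f1 differed by -0.25 (-0.63 to 0.14) and -0.15 (-0.34 to 0.03). In 5 genes, Fgf5, Pou3f1, Sox3, T and Mixl1, both Mut43 libraries were below both Mut18 libraries, an ordering found in 19.4% of all tested genes.

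The order of the levels changed with the fall of Fgf5, Pou3f1, Sox3 and T. Per length of exon, as counts scaled to exon length and library size (RPKM), WT cells had Zic2 highest at 27.01, then Pou3f1 at 18.9, Otx2 at 14.6, Fgf5 at 7.57, T at 7.02 and Sox3 at 3.50. Lef1 at 3.107 and Eomes at 3.099 were not separated by their spread, and Mixl1 at 0.594 and Evx1 at 0.372 came last. In the mutants Zic2 was still highest at 22.3 RPKM, but Otx2 at 14.0 stood above Pou3f1 at 6.38, and Fgf5 at 1.27 RPKM stood below Lef1 at 2.49 and Eomes at 1.87. Fgf5, Sox3 at 1.19 and T at 1.13 then overlapped in range. Summed over the 10 genes, normalised counts went from 4279 to 4670 in the WT libraries to 2788 to 2883 in the mutant libraries, with the groups apart.

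Other genes of the same states moved in the same direction more often than not, in lists chosen with earlier results of these data known. The lists are therefore not independent of these data, and some genes are in several of them. Over all tested genes, 24.5% were lower and 23.5% were higher. Of 20 other primed and formative genes, all tested, 13 were lower in the mutants, 2 were higher and 5 did not pass, with a median log2 fold change of -0.28. Fst, an activin inhibitor, was at 243 normalised counts in WT and 80.1 in the mutants (log2 fold change -1.60), and Sall2 (-1.17), the adhesion gene Cdh2 (-1.13) and Sox11 (-1.11) also fell more than 2-fold. Dnmt3l and Etv4 were the 2 that rose. They were singled out after their values were seen, at log2 fold changes of 0.32 and 0.41.

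Of 22 other genes of the primitive streak, mesoderm and endoderm, 19 were in the table and 14 could be tested. Among these, 8 were lower, 1 was higher and 5 did not pass, with a median log2 fold change of -0.85. Sp5, a direct WNT target, was at 126 and 116 normalised counts in WT and between 15.3 and 28.3 in the mutants (log2 fold change -2.50, standard error 0.19), a fall of the size of that of T. Kdr, a receptor of early mesoderm and endothelium, went from 150.0 to 51.5 (-1.54), and Foxa2, a factor of endoderm and node, from 12.7 to 1.26 (-3.21, standard error 0.61). The gene that rose was Wnt3a, a WNT ligand of the streak, from 3.42 to 13.9 normalised counts (1.98, standard error 0.47). Foxa2 and Wnt3a rest on few reads. Without WT replicate 1, 16 of these genes were tested, 7 were lower and 1 was higher, and the median was -0.46.

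Early neurectoderm genes were split in number. Of 14 listed, 7 could be tested, of which 3 were lower and 3 were higher, with a median log2 fold change of -0.57. By more than 2-fold, 3 were lower and 1 was higher. Nes, an intermediate filament of neural precursors, was at 2541 normalised counts in WT and 889 in the mutants (log2 fold change -1.51), and Zic1 (-1.44) and Sox1 (-1.10) fell too. Zic1 rests on few reads, at 13.2 normalised counts in WT and 4.8 in the mutants. Hesx1, a homeobox repressor of the anterior epiblast and forebrain, rose from 15.6 to 43.5 (1.47).

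Naive and general pluripotency genes moved the other way. Of 18, 14 were higher in the mutants, 2 were lower and 2 did not pass, with a median log2 fold change of 0.30. Dppa3, a maternal factor expressed in naive cells, was at 254 and 231 normalised counts in WT and between 812 and 934 in the mutants (log2 fold change 1.85). Prdm14, a repressor that guards the naive state, rose by 1.29, the T-box factor Tbx3 by 0.99 and Zfp42 (Rex1) by 0.72 on the log2 scale. The 2 that were lower, named after their values were seen, were Pou5f1 (-0.27) and Gbx2 (-0.41).

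The close relatives of the 10 genes showed no common direction. Of 22 paralogues, 14 could be tested, with 7 lower, 4 higher and a median log2 fold change of -0.08. The SOXB1 genes diverged, with Sox1 and Sox3 lower and Sox2 higher by 0.22 on the log2 scale. Among the TCF/LEF factors, Lef1 and Tcf7l2 (-0.30) were lower, Tcf7 rose by 0.40 and Tcf7l1 did not pass (-0.02). Fgf15, an FGF of the endocrine kind, fell from 577 to 299.9 normalised counts (-0.94).

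**Figure D3:**
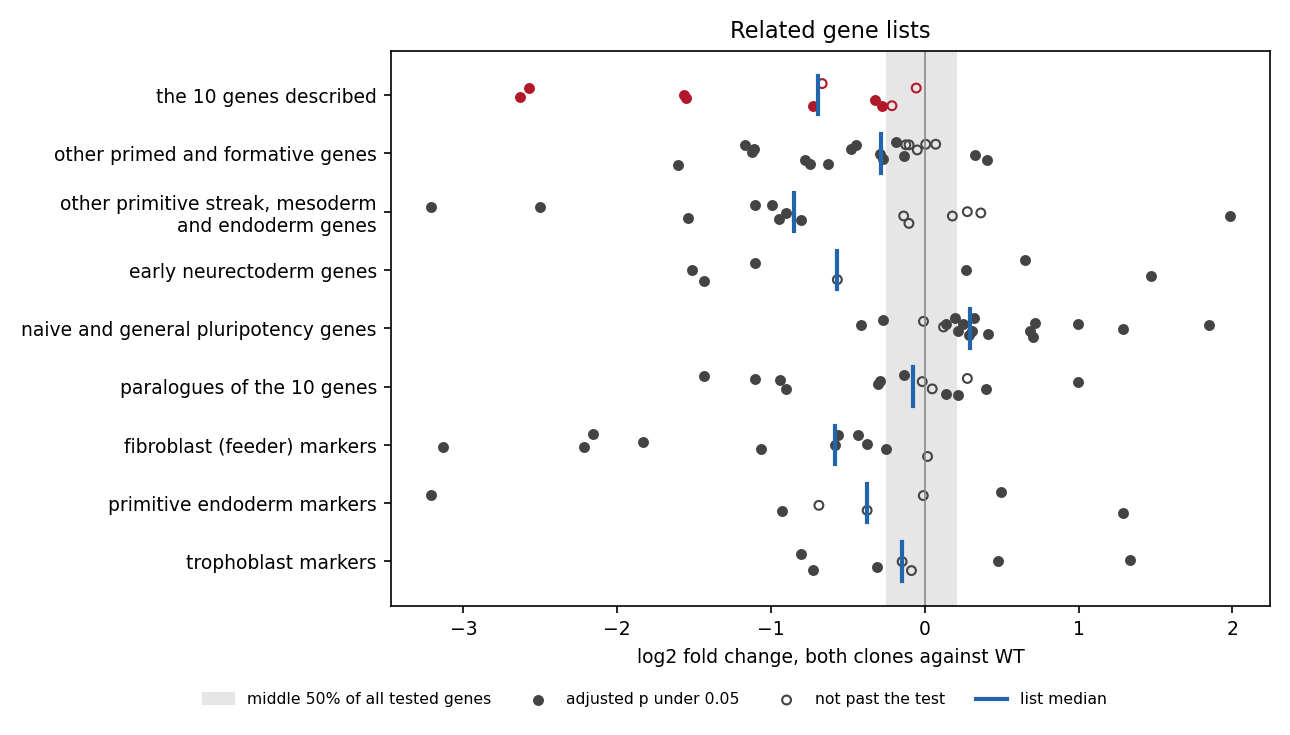
Log2 fold change of the pooled mutants against WT (horizontal axis) for the genes of each list (rows, 1 point per tested gene, filled where the adjusted p is under 0.05), with the median of each list as a bar and the quartile range of all tested genes shaded. The medians run from -0.85 for other streak genes to 0.30 for naive and general pluripotency genes.

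Markers of other cell types also moved with the groups. Of 12 fibroblast markers, which feeder cells would carry, 11 could be tested, 10 were lower in the mutants and 0 were higher, and the 1 that did not pass was Thy1. Their summed normalised counts ran from 6375 to 8230 in WT and from 3766 to 5480 in the mutants. The defining markers Col1a1 and Thy1 were present in every library, at 1890 and 93.8 normalised counts in WT and 1457 and 95.02 in the mutants, and Lum was at 0 in WT replicate 2, Mut18 replicate 2 and Mut43 replicate 2. WT replicate 1 was the higher of the WT libraries in Col3a1 (842 against 257 normalised counts in WT replicate 2). The same held for Postn (288 against 111) and Dcn (39.0 against 15.7). Col1a1 was closer (1984 against 1795), while Thy1 (87.8 against 99.9) and Fbln1 (319.9 against 372) were lower in WT replicate 1. Of the 10 genes, T and Mixl1 were higher in WT replicate 1 and the others lower, by most in Pou3f1 (1019 against 1168.5) and Otx2 (868 against 986). With all libraries the log2 fold changes were -3.13 for Col6a1, -2.22 for Postn, -2.16 for Col3a1 and -1.84 for Dcn. Without WT replicate 1 they were -1.06, -1.37, -1.06 and -1.03, Dcn no longer passed, and 7 of the 11 markers were lower in the mutants and 0 higher (edgeR, a fit added after the data were seen). Without WT replicate 1 the log2 fold changes of the pooled mutants were -2.61 for Fgf5, -1.66 for Pou3f1, -1.58 for Sox3, -2.62 for T and -0.77 for Eomes, so each of these 5 was within 0.1 of the value from all libraries.

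Primitive endoderm markers, 7 of 8 tested, included 2 that were lower (Foxa2 and Dab2) and 2 that were higher (Lama1 and Gata4). Their summed normalised counts were 957 to 1014 in WT and 1637 to 1799 in the mutants, mostly from Lama1, and Sox17 was at 4.40 and 2.77. Trophoblast markers, 7 of 8 tested, included 3 that were lower (Cdx2, Eomes and Krt8) and 2 that were higher (Hand1 and Tfap2c). Their sums were 2420 to 2541 in WT and 2167 to 2422 in the mutants, and Elf5 was at 0.977 and 3.79. The part of these cell types in the change of the 10 genes was not tested.

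None of the tested neighbours reported here of Fgf5, Pou3f1, Sox3 and T fell as far as the gene itself. Around Fgf5, Mir703 changed by 0.06 on the log2 scale (edgeR, adjusted p = 0.790). Prdm8, on the other side of Fgf5, was too low to test, at 7.33 normalised counts in WT and 2.28 in the mutants. T2 near T (5.87 and 4.55) and Hoxa11os near Evx1 (4.89 and 3.03) were also too low to test. Around Pou3f1, Utp11l, 17.5 kb away, changed by 0.08 (adjusted p = 0.231). Around Lef1, Hadh, 9063 bp away, was slightly higher (0.12, adjusted p = 0.0344). Around Eomes, Golga4 was higher (0.30, adjusted p = 0.000215) where Eomes was lower. Neighbours that were lower included Pde10a, 82.9 kb from T (-1.23, adjusted p = 0.00336), and Tmem260 beside Otx2 (-0.72, adjusted p = 0.0186). Tmem260 thus moved while Otx2 did not pass. A further 10 tested neighbours changed by between -0.23 (Rpl34) and 0.10 (Ldoc1) on the log2 scale and did not pass, among them 2610035F20Rik, 236 bp from Zic2, and Lin9, 2349 bp from Mixl1.

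By ATAC-seq, open chromatin near the 10 genes was much the same in number in all lines. Of the 55 regions within 20 kb, 29 (52.7%) had a peak in all 6 libraries, beside 54.7% of all regions. A peak in WT replicates 1 and 2 but in no mutant library was found for 1 region, and 0 had the reverse pattern, beside 3.25% and 0.733% of all regions. The remaining 25 had peaks in some WT and some mutant libraries or in part of 1 group. The region seen in WT alone lay downstream of Zic2 at chr14:122481249-122481427, with low fold enrichments of 3.36 and 3.93 over background.

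The share of each library's peaks that lay near these genes was 0.0615% ± 0.00306 (SD, n = 2) in WT and 0.0631% ± 0.00195 (SD, n = 4) in the mutants. The difference of 0.00157 percentage points was not larger than the spread (exact two-sided permutation test, p = 0.467, where the smallest p that 15 splits allow is 0.0667). WT replicate 1 had the longest list, 78536 peaks against 63588 to 69811 in the others, and peaks in 50 of the 55 regions against 38 to 43. Read depth of the ATAC-seq libraries is unknown from the peak lists, so a missing peak may be a peak just below the threshold of that library.

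**Figure D4:**
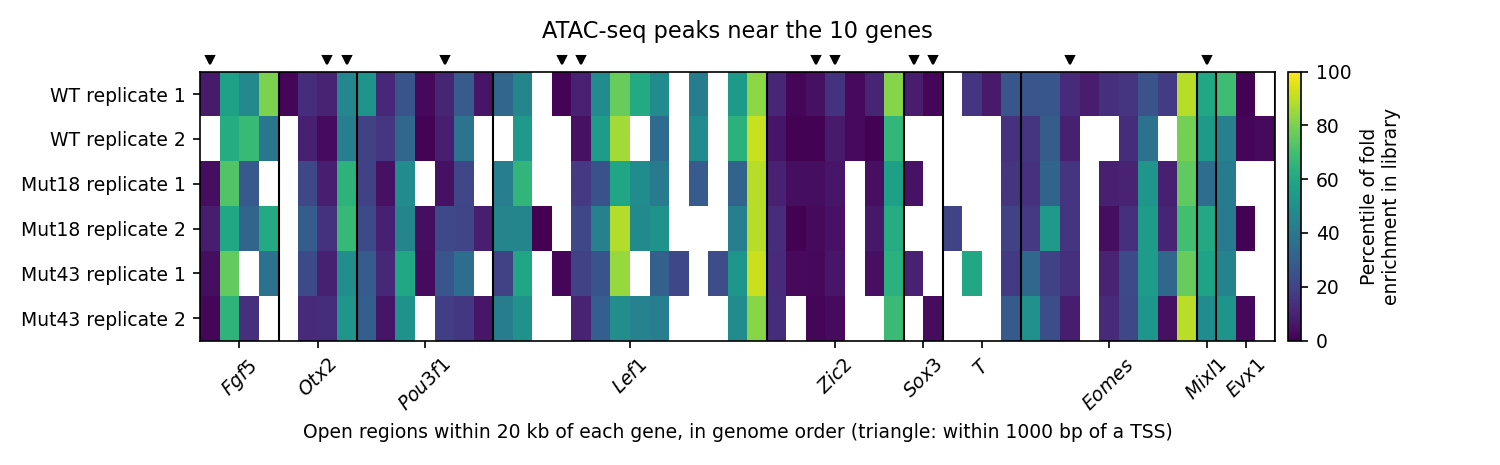
ATAC-seq peaks in the 55 regions near the 10 genes (columns, grouped by gene, with triangles over regions within 1000 bp of a start) in the 6 libraries (rows), coloured by the percentile of the peak's fold enrichment within its library, with white where a library has no peak. Lef1 has 14 regions and Mixl1 has 1, and 29 columns are filled in all 6 rows.

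At the starts of the genes, an open region lay within 1000 bp for 8 of the 10 genes, all but T and Evx1, and in all 6 libraries for 6, Otx2, Pou3f1, Lef1, Zic2, Eomes and Mixl1. Over all tested protein-coding genes these shares were 94.5% and 87.6%. Fgf5 had a weak peak at its start in WT replicate 1 and all 4 mutant libraries (fold enrichment 3.99, then 4.196, 4.53, 4.05 and 3.85), and none in WT replicate 2. The open region in its intron, at chr5:98255735-98256299, was stronger, at 7.33 and 8.63 in WT, beside 9.44 and 8.20 in Mut18 and 9.58 and 8.74 in Mut43. The intronic values of WT and mutants overlapped, while the RNA of Fgf5 was 5.97-fold apart. Downstream, the region chr5:98283835-98284270 was at 6.655 and 9.165 in WT, beside 6.31 and 6.43 in Mut18. Mut43 had no peak there in replicate 1 and 5.32 in replicate 2, so every mutant value was below WT. The region chr5:98293129-98293695 was at 9.41 and 7.08 in WT, 8.26 in Mut18 replicate 2 and 6.71 in Mut43 replicate 1. It had no peak in the other mutant libraries.

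The open region 4266 bp upstream of T was at a fold enrichment of 5.495 and 5.31 in WT, beside 5.39 and 5.54 in Mut18 and 5.36 and 6.33 in Mut43. It was present in every line while T RNA was 6.20-fold lower in the mutants. The start of Pou3f1 was open in all libraries, at 4.28 and 4.73 in WT, beside 4.36 and 5.77 in Mut18 and 6.07 and 5.68 in Mut43, with 1 mutant value inside the WT range. Sox3 had 2 regions at its start, one with peaks in 3 libraries, 1 of each line, and the other with peaks in WT replicate 1 and Mut43 replicate 2. The start of Mixl1, a gene with little RNA, was open in all libraries, from 6.80 to 8.25. Fold enrichments were set by each library's own background, and so they were also ranked within their library. By rank, 4 of the 29 regions present everywhere ranked below both WT libraries in all 4 mutant libraries (13.8%, beside 13.8% of all such regions) and 4 were higher, beside 9.35%.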

How the data were processed

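mRNA-seq and ATAC-seq were each analysed in 6 libraries, 2 per line, grouped by the titles of the samples. The ChIP-seq samples were not analysed here. The values deposited by the authors for mRNA-seq are raw counts of reads per gene, whole numbers with no normalisation, from reads aligned to mm10 joined with the Drosophila genome. They also deposited a list of ATAC-seq peaks per library, replicates not pooled, each peak with its fold enrichment over background, a −log10 p-value, a −log10 q-value and a score. The submitters' processing notes name STAR, SAMtools, DESeq2, Bowtie2 2.3.4.2, MACS2 and deepTools 3.3.0, without saying which step used which. The gene annotation, strand setting, treatment of duplicates and transposase shift are not given in the sources used here.

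The count table was tested with edgeR 4.0.16 under R 4.3.3. Genes were filtered (minimum count 10, minimum total 15), scaled by TMM and tested by the quasi-likelihood F-test with Benjamini-Hochberg adjustment over 14061 genes. The 4 mutant libraries were compared with the 2 WT libraries, and clones in a fit with 3 groups. The pooled fit had no term for the clone, so it took libraries of the same clone as separate replicates. Normalised counts are counts scaled by TMM to the mean library size, and RPKM uses GENCODE M21 exon length. Totals were 14992756 to 15143998, and intervals cover the spread between these libraries only. Symbols were matched to the annotation, 15618 directly and 477 through RefSeq, with 168 unmatched.

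Peaks overlapping by 1 bp or more were merged into regions, and regions within 20 kb of a gene body were kept. Promoter sequences are from RefSeq (GRCm38.p6), with entries for 6 of the 10 genes. Pou3f1, Zic2, Sox3 and Mixl1 had none. The scripts were tested on simulated data, and Python 3.11.15 with pandas 2.3.3 and scipy 1.17.1 was used. Alternatives were RLE and upper-quartile factors, other filters, DESeq2 1.42.0, a replicate block, each library left out, and other peak thresholds, overlaps and windows.

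The genes and lists were chosen with earlier results of these data known. Named were the 10 genes, their nearest neighbours (1 of which is not reported here), up to 4 genes per list with the largest change past the test, and the 2 genes most like each gene past the test. Sequences of T and ranks of fold enrichment were added after values were seen.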

Additional observations from a re-analysis of the deposited data

How the results depend on the processing

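In the pooled comparison with WT, 7 genes passed under every alternative that kept the threshold on p alone, with 7 in each fit that left out 1 library. With a 2-fold threshold as well, 4 of the 10 genes passed, in the pooled comparison and in each clone, and 1255 of all tested genes, 794 lower and 461 higher. DESeq2 called 5428 genes in all, 2708 of them lower, and fits without 1 library called 5206 to 6648. Without 1 library, 7 to 8 of the 10 genes passed in Mut18, 6 to 7 in Mut43 and 0 between the clones. There, a line left with 1 library was assumed to vary like the others. Of 128 values for single genes in each comparison, 127 kept their direction and their side of the threshold in the pooled comparison, 124 in Mut18 and 126 between the clones. In Mut43, 4 values no longer passed, all of Lef1, and 2 turned, both of Otx2. The cause of these changes was not tested.

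Directions that turned belonged to genes that had not passed. Without 1 library, Otx2 ranged from -0.142 to 0.0454 on the log2 scale in the pooled comparison and from -0.0671 to 0.121 in Mut43, and Mixl1 in Mut18 from -0.19 to 0.24. Between the clones Zic2 ranged from -0.0094 to 0.0723 and Eomes from -0.0367 to 0.340. With upper-quartile factors Otx2 in Mut43 was at -0.0046, and Evx1 in Mut18 passed (-1.10, edgeR with Benjamini-Hochberg adjustment, adjusted p = 0.0495). Otx2 in Mut18 passed without WT replicate 1 (-0.22, edgeR, adjusted p = 0.0194). Without WT replicate 1, a setting added after the data were seen, 12 of 20 other primed genes were lower, 13 of 18 naive and general pluripotency genes were higher, and 5 of 15 paralogues were lower and 3 higher. The neurectoderm genes had 4 of 9 lower and 3 higher, with a median of -1.06. Primitive endoderm markers had 2 of 7 lower and 1 higher, with a median that turned from -0.38 to 0.34, and trophoblast markers 3 of 7 lower and 2 higher. The neurectoderm median without WT replicate 1 was the value of a single gene, Otx1, which was not tested with all libraries. Both primitive endoderm medians were the values of Gata6. With all libraries Gata6 was at 29.3 and 12.7 normalised counts in WT and did not pass (edgeR, adjusted p = 0.396). Other scalings shifted the median of all genes by at most 0.0256 on the log2 scale.

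The share of regions with a peak in every library was 36.4% when a peak had to cover 50% of the region (40.8% of all regions), and 52.7% to 61.1% without 1 library. The difference in the share of peaks was -0.000365 percentage points with a window of 10 kb, and -0.000592 to 0.00374 without 1 library, the lowest without WT replicate 2.

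The replicate numbers did not pair the libraries: deviations of equally numbered libraries correlated at -0.0539, 0.0032 and -0.0253 over 11076 genes. With a replicate block 7 of the 10 genes and 6604 of all genes passed, and no call for the 10 genes changed. Depth limits Mixl1 and Evx1, and 2 WT libraries limit the spread that could be estimated.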

Other observations

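The genes whose log2 levels followed those of the 10 genes most closely were searched over the 6 mRNA-seq libraries among 11075 genes with a mean of at least 50 normalised counts. The closest to Fgf5 were Rhobtb3 and the imprinted gene Grb10, which itself fell by 3.98 on the log2 scale (edgeR with Benjamini-Hochberg adjustment, adjusted p = 2.56e-21). The closest to T were Arl4c, a small GTPase gene (log2 fold change -1.49), and Rragb (-0.75). Pou3f1 was followed by Rfwd2 (-0.19) and Pon2 (-0.81), and Sox3 by Slc43a3 (-0.27) and Basp1 (-0.49). Eomes was followed by Armcx6 (-0.80) and Zfp64 (-0.20), Zic2 by Tmem79 (-0.36) and Nckap1l (-0.99), and Lef1 by Ssrp1 (-0.09) and Igsf11 (-0.86). The size of the change thus differed within pairs, and Slc43a3 did not pass (edgeR, adjusted p = 0.097). Pearson's r was between 0.994 and 1.00 for these pairs. Such values are common where 6 points fall into WT and mutants: 1103 genes had an r over 0.95 with Fgf5, 1071 with Pou3f1, 1053 with T, 640 with Sox3, 370 with Zic2, 162 with Eomes and 146 with Lef1.

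By place, the open regions near the 10 genes were 12 at gene starts, 16 upstream, 17 downstream, 6 in introns and 4 in exons. A peak in all 6 libraries was found for 8 of the regions at starts, 9 upstream, 8 downstream, 2 in introns and 2 in exons. Per gene, all 6 libraries had a peak in 5 of 7 regions near Pou3f1, 6 of 9 near Eomes, 7 of 14 near Lef1, 4 of 7 near Zic2 and 3 of 4 near Otx2. It was 1 of 4 for Fgf5 and for T, 0 of 2 for Sox3, 1 of 3 for Evx1 and 1 of 1 for Mixl1.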
